A study of Glycine max with 6 samples.

Results

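SCAM-4 and MAPKK2 are a soybean calmodulin gene and a soybean mitogen-activated protein (MAP) kinase kinase gene, described here in paraveinal mesophyll (PVM) and palisade parenchyma (PP) cells of the leaf. Their members are all probe sets whose only gene symbol in the array's annotation is SCAM-4 or MAPKK2. These are 5 probe sets for 2 genes, out of 8677 soybean probe sets with 1 symbol covering 6029 genes. Both genes were chosen because 1 of their probe sets measured high in PVM relative to PP, so the differences of all 5 probe sets between the layers are given as a description, with no test. Their identifiers head the panels of the plot of intensities by array, in the order in which they are described.

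Transcripts were measured with 6 Affymetrix soybean arrays of 1 colour. The PVM group had 3 arrays of paraveinal mesophyll cells and the PP group had 3 arrays of palisade cells, all from untreated Glycine max plants of no stated cultivar or genotype, kept in growth chambers under a long-day light cycle, with mature leaves. Cells of each sample were cut by laser from fixed, paraffin-embedded sections, pooled, and their RNA was amplified before labelling, so each value averages many cells. The titles, source names and cell type entries of the PP samples name palisade cells and were followed, although their description field names paraveinal cells. In the titles the group is written PP1, shortened here to PP. Because cells were pooled, fewer cells carrying a transcript and less of it per cell cannot be told apart.

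Calmodulin is a small protein that binds calcium through EF-hand motifs and then switches its target proteins. Soybean has several isoforms. SCAM-1, SCAM-2 and SCAM-3 are close to the calmodulin conserved across plants, whereas SCAM-4 and SCAM-5 are divergent isoforms known for their rapid induction by pathogen signals. A MAP kinase kinase stands in the middle of a relay in which it is phosphorylated by an upstream kinase and in turn phosphorylates a MAP kinase, and plants use such relays in stress, defence and development. The paraveinal mesophyll is a sheet of large cells joining the veins, known in soybean for its place between photosynthetic cells and phloem and for storing protein in its vacuoles, while palisade cells carry much of the leaf's photosynthesis.

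Summed intensities of the markers of both layers ran the way the labels name them. The summed intensity of 15 probe sets for the storage proteins VSPA and VSPB and the lipoxygenase LOXB1 ran from 79744 to 87387 in PVM, against 38668 to 57747 in PP. That of 13 probe sets for antenna proteins and Rubisco activases ran from 66921 to 94012 in PVM, against 108409 to 121994 in PP. After normalization, all 14 tested PVM marker probe sets were higher in PVM (median 1.55), whereas 8 of 12 tested palisade marker probe sets were lower and 4 higher (median -0.24), the palisade list with 0 at an unadjusted p under 0.05. No probe set of either list passed limma's adjusted threshold. Both layers therefore carried both sets of transcripts. Of 17 probe sets for vascular genes, 4 were above background on all 3 PVM arrays and 4 on all 3 PP arrays, with summed intensities of 820 to 2454 in PVM, against 462 to 665 in PP. Of the 6 tested, 4 were higher in PVM and 2 lower, with log2 differences from -0.83 to 2.10. Among 11 probe sets for SEO genes, which encode sieve element proteins, 6 were at or below background on all 6 arrays. Summed intensities of these 11 ran from 53.1 to 454 in PVM, against 71.2 to 245 in PP. The SEO gene SEOC, not among the 6 at background, measured 209, 8.16 and 338 on the PVM arrays, against 2.003, 6.67 and 11.9 on the PP arrays. It was above background on 2 PVM arrays and on no PP array, the arrays of the layers overlapped, and it did not reach the filter for testing. With its PP values set at background, its normalized mean was 3.84-fold higher in PVM. Among the 3 probe sets of the vascular gene SS, 1 measured 117, 38.01 and 72.9 on the PVM arrays, against 4.45, 13.6 and 12.6 on the PP arrays. No PP array was above background there, and the level was at least 2.53-fold higher in PVM (limma adjusted p = 0.162), whereas the arrays overlapped on the other two. The guard cell list held 1 gene, MYB60, named for its role in Arabidopsis, whose 4 probe sets summed to between 35.6 and 433 in PVM, against between 24.0 and 91.5 in PP. On the normalized log2 scale its 2 tested probe sets were higher in PVM by 0.72 and 1.78. At an unadjusted p under 0.05 in limma, 1 of them was higher, where 6.53% of all tested probe sets were. Heat shock probe sets summed to between 3144 and 3720 in PVM, against between 3248 and 5128 in PP. The part of vascular, guard cell or heat shock transcripts in the results below was not tested. Each PVM array correlated more closely with PP array 1 than with either other PVM array (r over all soybean probe sets of 0.901 to 0.916, against 0.891 to 0.907 between PVM arrays), and PP arrays 1 and 2 were the closest pair of all (0.960).

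SCAM-4 was measured by a probe set that separated the layers and by another that did not. On the first, called the shared SCAM-4 probe set here because its name is marked for shared sequence, the intensities were 148, 628 and 166 on PVM arrays 1 to 3, against 24.5, 30.2 and 14.5 on PP arrays 1 to 3. All PVM arrays lay above all PP arrays, and PVM array 2 stood well above the other PVM arrays. Intensity averaged 314 ± 272 in PVM and 23.05 ± 7.93 in PP (SD, n = 3 arrays each). On the scale of log2(intensity + 16) after quantile normalization the difference, PVM minus PP, was 2.81 (limma SE 0.56), or 6.99-fold. The ratio of the deposited means was 13.6. With a pseudocount of 1 in place of 16 the log2 difference was 3.51.

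The PP values of that probe set were close to the array's own noise. Background on each array was set at the 95th percentile of probe sets designed for other organisms, and ran from 11.0 to 15.5 in PVM, against 17.2 to 20.7 in PP. The signal was 10.7, 57.3 and 10.7 times background on PVM arrays 1 to 3, against 1.43, 1.59 and 0.701 times on PP arrays 1 to 3. PP array 3 thus fell below background, and the size of the fold rests on PP values near the floor. The suffix "_s" of the name marks probes that also match transcripts of other genes, so a related calmodulin transcript could contribute to the signal, which was not tested.

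The other SCAM-4 probe set, whose name carries no such mark and which is called the unmarked one here, had intensities of 35.8, 38.9 and 276 on the PVM arrays, against 20.7, 38.3 and 75.5 on the PP arrays. The layers overlapped. PVM array 3 was the highest, and within PP array 3 was the highest too. The log2 difference was 0.79 (SE 0.72), smaller than the SD between arrays of a layer (1.10 on this scale), and it was 0.01 without PVM array 3. PVM array 2, the highest for the first probe set, gave one of the low PVM values here.

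MAPKK2 had 3 probe sets, of which 1 separated the layers. MAPKK2 probe set A, with no mark for shared sequence, had intensities of 401, 274 and 417 on the PVM arrays, against 79.6, 79.0 and 40.2 on the PP arrays. The lowest PVM array was above the highest PP array by a wide margin, and all 6 arrays were above background. Intensity averaged 364 ± 78.3 in PVM and 66.3 ± 22.6 in PP (SD, n = 3 arrays each), or 2.15 on the log2 scale (SE 0.35) or 4.43-fold after normalization. Signals were 25.0 to 29.0 times background in PVM and 1.95 to 4.64 times in PP. Within each layer its SD was 0.33 (PVM) and 0.32 (PP) on the log2 scale, and leaving out any single array kept the difference between 1.94 and 2.29.

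The other MAPKK2 probe sets showed no such gap. MAPKK2 probe set B, whose suffix marks probes shared by alternative transcripts of 1 gene, measured 69.4, 123 and 308 on the PVM arrays, against 114, 86.3 and 397 on the PP arrays. The layers overlapped fully, with array 3 the highest within each. The log2 difference was -0.20 (SE 0.69). MAPKK2 probe set C, with no mark, measured 419, 39.0 and 127 on the PVM arrays, against 158, 203 and 37.7 on the PP arrays. Here PVM array 1 was the highest, and PVM array 2 and PP array 3 were about equally low. The log2 difference was 0.17 (SE 0.78).

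Single arrays set the sign of both of these small differences. With PP array 3 left out probe set B was at 0.42, with PVM array 1 left out at 0.26 and with PVM array 3 left out at -0.73. Probe set C was at -0.57 with PVM array 1 left out, at -0.39 with PP array 3 left out and at 0.78 with PVM array 2 left out. All 3 probe sets were above background on all 6 arrays, so none of them lacked signal in a layer. The layer difference of MAPKK2 therefore rests on 1 of its 3 probe sets, and that of SCAM-4 on 1 of 2.

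**Figure D1:**
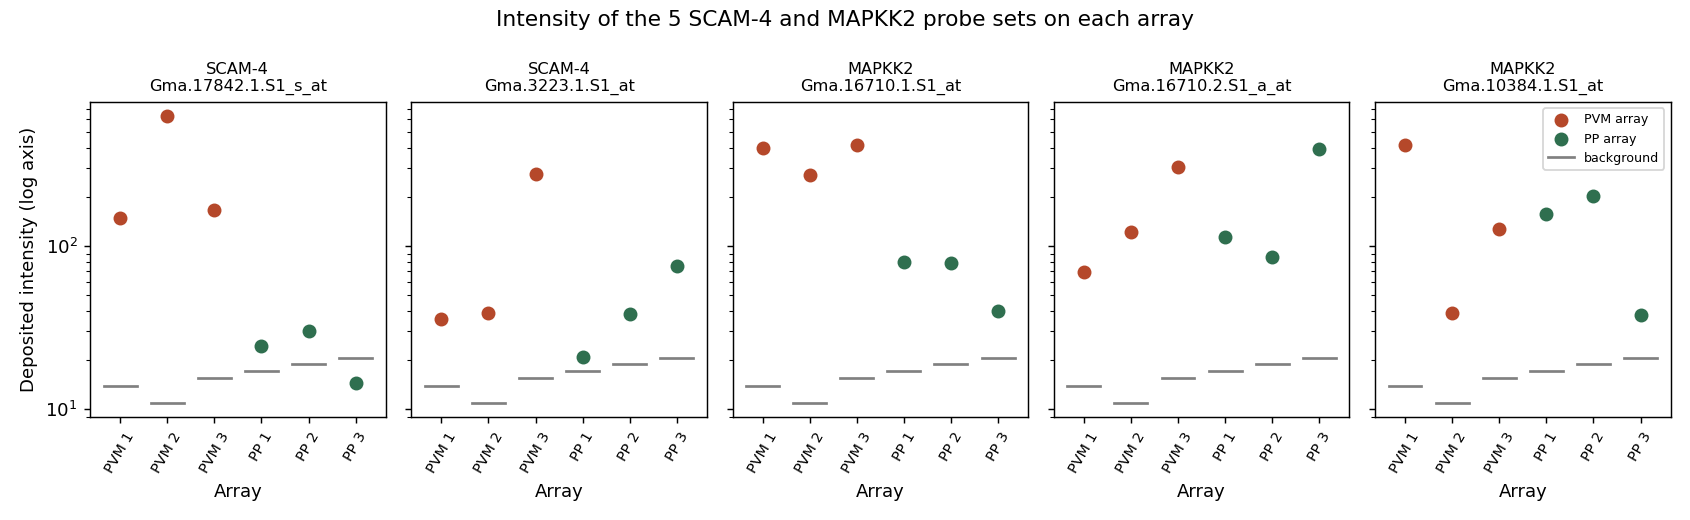
Deposited intensity (log axis) of the 5 probe sets on PVM arrays 1 to 3 and PP arrays 1 to 3, 1 point per array, with each array's background as a grey bar. From left to right the panels are the shared and the unmarked SCAM-4 probe set and MAPKK2 probe sets A, B and C. The layers are separate for the shared SCAM-4 probe set and for MAPKK2 probe set A and overlap for the other 3.

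Among the 5 probe sets, 2 had all PVM arrays above all PP arrays. Over all 25314 tested soybean probe sets that share was 8.62%, and since both genes were chosen on this contrast, nothing is read from the comparison. The spread between probe sets of a gene, the highest minus the lowest log2 difference, was 2.02 for SCAM-4. Across the 914 genes with 2 tested probe sets the median spread was 0.36 and the 90th percentile 1.16, and 12 of them, SCAM-4 included (1.31%), had a spread at least that large. For MAPKK2 it was 2.35. Across the 266 genes with 3 tested probe sets the median was 0.64 and the 90th percentile 1.55, and 5 of them, MAPKK2 included (1.88%), reached that size. Choosing genes for a large difference on 1 probe set also selects for a large spread, so these shares describe and do not test. Opposite signs among the probe sets of a gene were common, in 140 of the 266 genes with 3 (52.6%) and 299 of the 914 with 2 (32.7%).

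The other calmodulins were tested with limma over all 25314 tested probe sets, where 11 probe sets, or 0.0435%, were higher in PVM and 0, or 0%, were lower at a Benjamini-Hochberg adjusted p under 0.05. With an intensity trend and robust prior limma called 136 higher, or 0.537%, and 13 lower, or 0.0514%. No probe set of the calmodulin or kinase lists was called in either fit. At an unadjusted p under 0.05, 6.53% of tested probe sets lay higher in PVM and 5.63% lay lower. Leaving SCAM-4 out, 10 tested calmodulin probe sets for 3 genes remained, of which 6 lay higher and 4 lower in PVM. Their median was 0.12 on the log2 scale, beside -0.06 over all tested probe sets. At that unadjusted limit 2 were higher and 0 lower.

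Both of these 2 belong to SCAM-3, a conserved calmodulin, and they are named after their values were seen. The first of them measured 461, 415 and 584 on the PVM arrays, against 61.4, 131 and 139 on the PP arrays. The layers did not overlap, and the log2 difference was 1.98 (SE 0.41, limma adjusted p = 0.159). Its companion, named alike but for a mark for shared sequence that the first lacks, differed by 1.58 (limma adjusted p = 0.177). The brightest SCAM-3 probe set, marked for shared sequence, averaged 1820 ± 217 in PVM and 1923 ± 408 in PP (SD, n = 3 arrays each), or 0.04 on the log2 scale (SE 0.32), and between -0.06 and 0.18 with single arrays left out. SCAM-3, like SCAM-4, therefore had probe sets that separated the layers beside one that did not.

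SCAM-1 and SCAM-2, the other conserved isoforms, had no probe set under an unadjusted p of 0.05. SCAM-1 averaged, on its brightest probe set, 144 ± 52.7 in PVM, against 102 ± 68.8 in PP, or 0.45 on the log2 scale (SE 0.52), and its second probe set was at -0.52 (SE 0.53). SCAM-2 averaged, on its brightest, 1502 ± 177 in PVM, against 1674 ± 271 in PP, or -0.08 on the log2 scale (SE 0.32). The 5 probe sets of SCAM-2 ran from -1.36 to 0.65. SCAM-5, the other divergent isoform, had intensities of 0.212 to 17.5 in PVM and 2.77 to 13.6 in PP over both of its probe sets. Only PVM array 3 on 1 of them was above background, so SCAM-5 was not tested and no difference can be given for it.

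**Figure D2:**
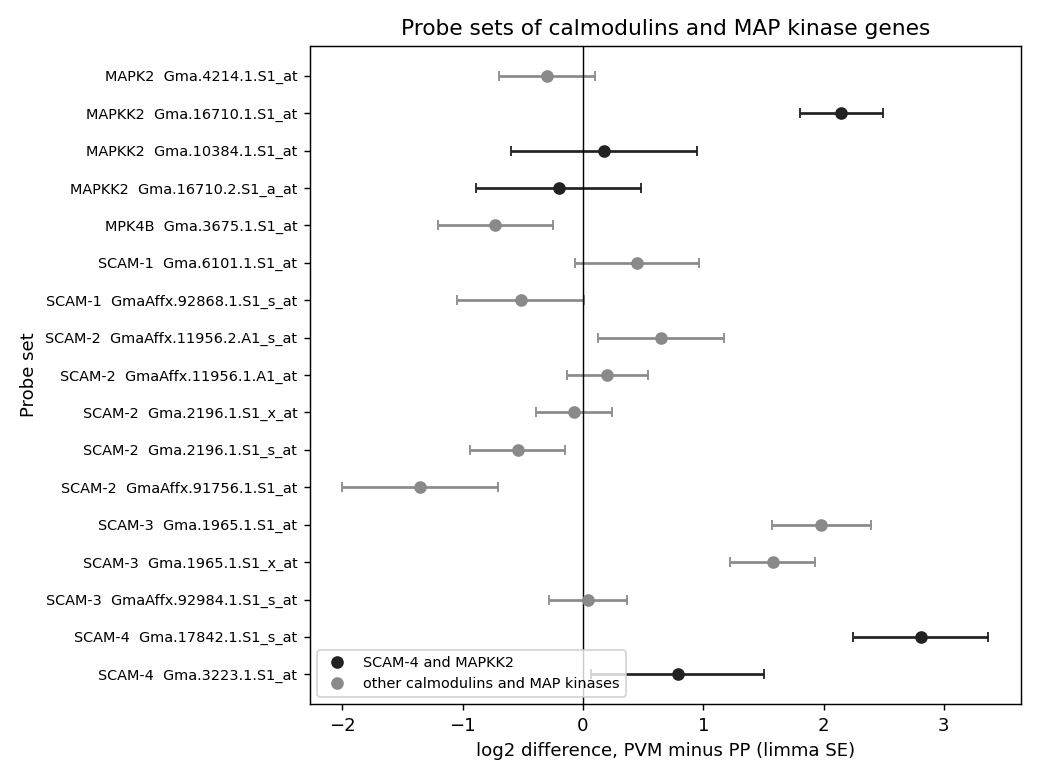
Log2 difference, PVM minus PP, with the limma SE for each tested probe set of SCAM-1 to SCAM-4, MAPKK2, MAPK2 and MPK4B. SCAM-4 and MAPKK2 (black) each have 1 probe set above 2 and others near or below 1, and 2 SCAM-3 probe sets lie at 1.58 and 1.98.

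MAP kinases, the substrates of a MAP kinase kinase, were represented by MAPK2 (synonym MPK6) and MPK4B, with 1 probe set each. MAPK2 measured 209, 285 and 126 on the PVM arrays, against 185, 239 and 242 on the PP arrays, or -0.30 on the log2 scale (SE 0.40, limma adjusted p = 0.818). MPK4B measured 46.1, 97.3 and 144 on the PVM arrays, against 99.6, 238 and 132 on the PP arrays, or -0.73 on the log2 scale (SE 0.48, limma adjusted p = 0.592). The layers overlapped for both, and neither passed the threshold. MAPK2 was at 0.03 without PVM array 3.

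The tested probe sets listed as calcium-dependent and related kinases measured higher in PVM, though none passed the threshold. Such kinases respond to calcium directly where they carry their own binding domain. Most of these probe sets carry the symbol CRK, whose family is undecided, as described below. The list had 5 tested probe sets for 5 genes, all 5 higher in PVM, where 46.3% of all tested probe sets were. Their median log2 difference was 1.17, which is the value of CRK39. CRK84, which did not reach the filter for testing, ran the other way, with 6.68, 2.98 and 2.15 on the PVM arrays, against 13.7, 18.4 and 35.8 on the PP arrays. Of these only PP array 3 was above background. With the PVM values set at background, the normalized mean was 1.19-fold lower in PVM, with the other PP values behind it below background too. CDPK-GAMMA, a calcium-dependent protein kinase with its own calmodulin-like domain, measured 55.3, 67.5 and 61.9 on the PVM arrays, against 25.1, 17.6 and 11.2 on the PP arrays. The layers did not overlap and the log2 difference was 1.26 (SE 0.33, limma adjusted p = 0.228), with PP arrays 2 and 3 below background. CDPK, another such kinase, was at 0.41 (SE 0.55) with overlapping arrays, and at -0.05 without PVM array 2.

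The remaining 3 probe sets of that list carry the symbol CRK, which can stand for calcium-related or for receptor-like kinases, and the annotation does not say which. CRK5 had the largest difference of the list, with 585, 879 and 725 on the PVM arrays, against 132, 46.9 and 374 on the PP arrays. The log2 difference was 2.25 (SE 0.66, limma adjusted p = 0.260). CRK39 was at 1.17 (limma adjusted p = 0.364) and CRK11 at 0.87. CRK11 was above background on 2 PVM arrays and 1 PP array, and its difference ran from 0.33 to 2.51 over the alternative settings. CDPK-BETA and CRK84 did not reach the filter on background. The kinase CAMK1, caught by the calmodulin list, did not reach it either.

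Proteins that move or bind calcium included the annexin ANN11 and the calcium pumps SCA1 and SCA2. Annexins bind membranes in the presence of calcium. On its brightest probe set ANN11 measured 228, 129 and 241 on the PVM arrays, against 53.4, 14.2 and 0.522 on the PP arrays, or 2.71 on the log2 scale (SE 0.54, limma adjusted p = 0.157). PP arrays 2 and 3 were below background there, so the size rests on values near the floor. A second ANN11 probe set differed by 2.13 (limma adjusted p = 0.226), and another, dim one by 0.65 (limma adjusted p = 0.562).

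SCA1, a calcium pump of the plasma membrane stimulated by calmodulin, averaged 551 ± 303 in PVM and 630 ± 107 in PP, or -0.35 on the log2 scale (SE 0.44). SCA2 averaged, on its brightest probe set, 592 ± 107 in PVM, against 380 ± 109 in PP, or 0.55 on the log2 scale (SE 0.36), and its other tested probe sets were at 0.66 and 0.78. Of the 7 tested probe sets of the list, 6 were higher in PVM, with a median of 0.66, and 0 passed the threshold in limma. At an unadjusted p under 0.05, 2 were higher, both of ANN11, where 6.53% of all tested probe sets were.

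The broader list of receptor-like and other protein kinases had more probe sets lower than higher in PVM, as did all tested probe sets. Of its 29 tested probe sets 12 were higher (41.4%) and 17 lower in PVM, with a median of -0.28. Over all tested probe sets 46.3% were higher. At an unadjusted p under 0.05 in limma, 2 of the list were higher and 1 lower, beside 6.53% and 5.63% of all tested probe sets. Without PTOX, a plastid oxidase, and SHMT, a serine hydroxymethyltransferase, both caught by the symbol patterns but no kinases, 10 of 26 were higher and 16 lower, with a median of -0.32. EIN4, an ethylene receptor, had the largest negative difference, with 33.4, 63.9 and 42.0 on the PVM arrays, against 241, 132 and 311 on the PP arrays, and -1.98 on the log2 scale (SE 0.43, limma adjusted p = 0.174). NARK, the receptor kinase through which soybean limits its nodule number, had the largest positive difference on a gene's brightest probe set among genes with a symbol other than a bare LOC number, 0.79 (SE 0.68). Its arrays overlapped and only 1 PP array was above background.

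Further kinases are named after their values were seen. LOC100305406 (synonym PBS1-2), a relative of an Arabidopsis immune kinase, differed by 1.40 (limma adjusted p = 0.345). A dimmer probe set of the kinase PK3 differed by 1.22 (limma adjusted p = 0.409), and the brighter one of the same gene by -0.44. SNRK1, the energy-sensing kinase, was at -0.45, with 132, 95.7 and 119 on the PVM arrays, against 134, 158 and 160 on the PP arrays.

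**Figure D3:**
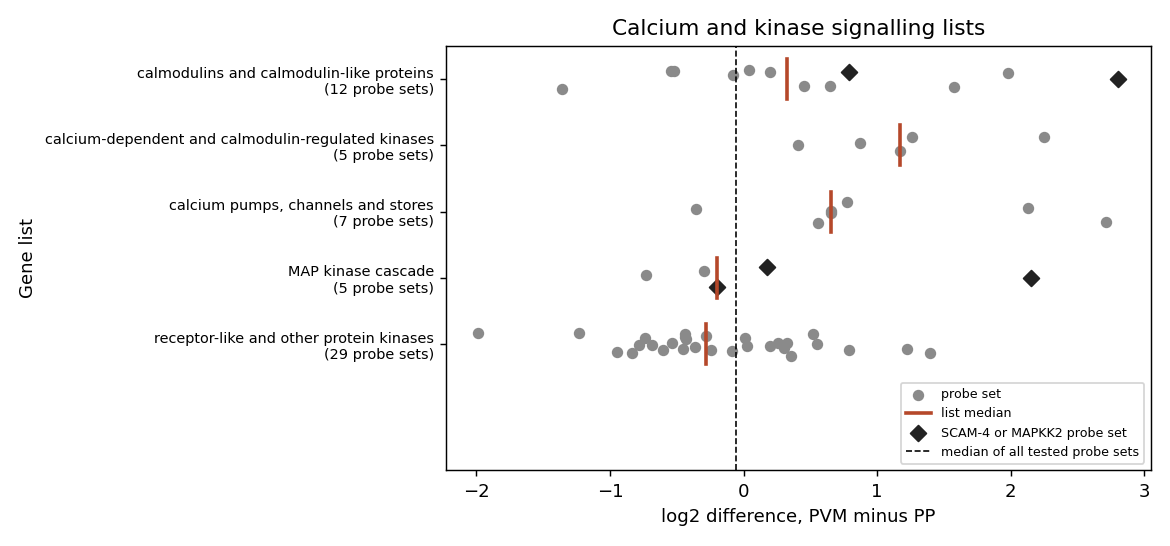
Log2 difference, PVM minus PP, of each tested probe set in the 5 calcium and kinase lists that had any, with PTOX and SHMT included in the lowest. Diamonds are SCAM-4 and MAPKK2, red bars the list medians, and the dashed line the median of all tested probe sets (-0.06).

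Over all these lists, leaving out SCAM-4, MAPKK2, PTOX and SHMT, 50 probe sets for 33 genes were tested, 27 higher and 23 lower in PVM, at a median of 0.12 on the log2 scale. None passed the threshold in limma. At an unadjusted p under 0.05 in limma, 9 were higher and 1 lower, beside 6.53% and 5.63% of all tested probe sets. The 9 are not independent, since SCAM-3 and ANN11 each gave more than 1 of them. On the normalized scale the layers did not overlap for 13, of which 8 had PVM above PP and 5 had PVM below PP, beside 8.62% and 10.1% of all tested probe sets. Of the 13, LOC100305406, PK6 and 1 SCAM-2 probe set overlapped on the deposited intensities. The list of calcineurin B-like proteins and their kinases found no symbol on the array.

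Genes whose pattern over the 6 arrays was most like that of the brightest SCAM-4 and MAPKK2 probe sets were found among 693 other genes with a name, by Pearson correlation of normalized log2 values. All points share the same 6 arrays and the layer gap for which both genes were chosen, so the correlations only describe. Picking genes by correlation also favours those that peak or dip on the same array, so such agreement only describes too. For SCAM-4 they were DGK12 (r = 0.964), a diacylglycerol kinase by its symbol, LAX11 (0.961), an auxin influx carrier by its symbol, CDPK-GAMMA (0.961), the purple acid phosphatase PAP25 (0.955) and the aquaporin PIP2-2 (0.954). LAX11 was at or below background on all PP arrays, so its correlation rests partly on values at the floor. All 5 had their highest value on PVM array 2, as the shared SCAM-4 probe set did. PIP2-2, for example, measured 91.5, 236 and 97.3 on the PVM arrays, against 42.1, 67.7 and 30.1 on the PP arrays.

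For MAPKK2 they were the cytochrome P450 gene CYP71A9 (r = 0.982), the dehydroascorbate reductase DHAR4 (0.975), the transcription factor RAV (0.960), the annexin ANN11 (0.958) and the glyoxalase GLYI-17 (0.957). In all 5, PVM array 2 was the lowest of the PVM arrays, as on MAPKK2 probe set A. DHAR4, for example, measured 191, 130 and 251 on the PVM arrays, against 63.1, 35.1 and 18.5 on the PP arrays. CYP71A9 was at or below background on all PP arrays. On their brightest probe sets SCAM-4 and MAPKK2 thus had their extremes within PVM on the same array in opposite directions. The unmarked SCAM-4 probe set instead peaked on PVM array 3. MAPKK2 probe set B was lowest on PVM array 1, and probe set C on PVM array 2. The brightest SCAM-4 and MAPKK2 probe sets correlated at 0.827, which placed MAPKK2 at rank 50 for SCAM-4 and SCAM-4 at rank 64 for MAPKK2.

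**Figure D4:**
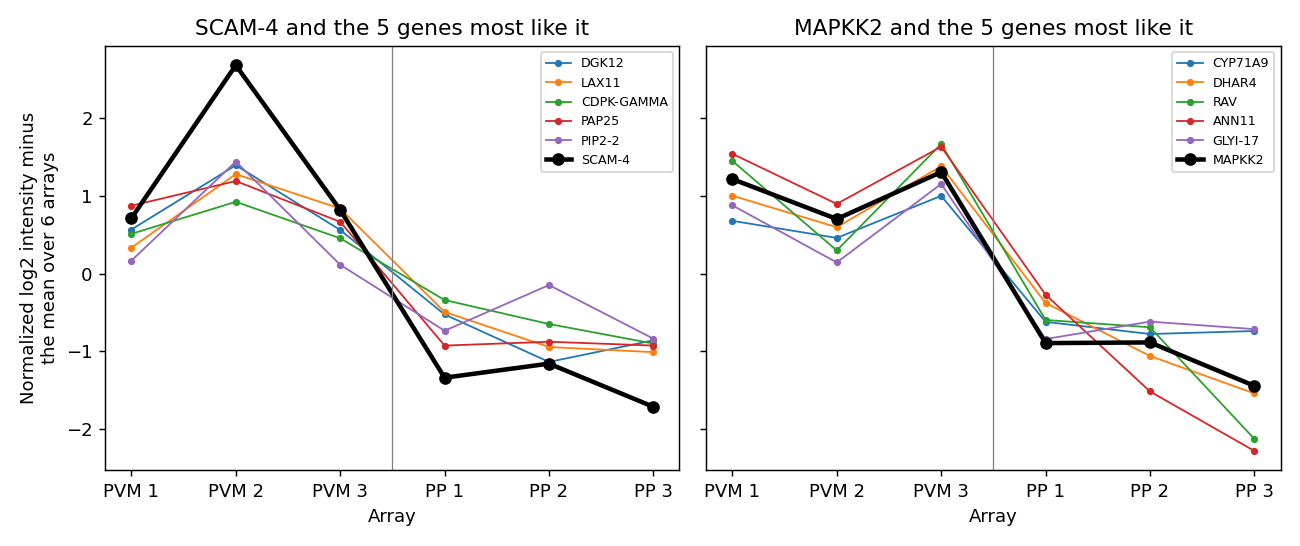
Normalized log2 intensity minus the mean over the 6 arrays, for the brightest probe sets of SCAM-4 (left) and MAPKK2 (right) in black and the 5 genes most like each in colour, PVM arrays left of PP arrays. SCAM-4 and its 5 genes peak on PVM array 2, where MAPKK2 and its 5 genes have their lowest PVM value.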

How the data were processed

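The authors deposited linear intensities, 1 per probe set and array, for 61170 probe sets. The sources used here name neither the program nor the summarisation. Each array had a 2% trimmed mean of 125, which points to scaling by the authors. For this report, log2(intensity + 16) was quantile-normalized over all probe sets. Of 37593 soybean probe sets, the 25314 above background (95th percentile of 23350 probe sets for other organisms) on at least 3 of 6 arrays entered limma 3.58.1 under R 4.3.3 (no covariates, Benjamini-Hochberg adjustment, threshold 0.05), after a check on simulated data. The number of arrays limits precision. Per the labels' design text the replicates are biological. Groups came from sample titles. Symbols came from the platform annotation, updated through a RefSeq table (8652 of 9047 probe sets matched).

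The members and lists were chosen with earlier results of these data known. Lists were symbol patterns, described by counts and medians. The rule for named genes took all probe sets of both genes, the other calmodulins and MAP kinases, the largest difference in each direction per list, and the 5 genes most like each member. A gene's brightest probe set is the one with the highest mean intensity. Alternatives were a replicate block, 2 scalings, filters, pseudocounts, a variance trend, array weights and each array left out. Pairing of replicate numbers is not stated, so the numbers were not treated as pairs and the replicate block was an alternative. Deviations of same-numbered arrays correlated only weakly (r of 0.0155, 0.0239 and 0.0417 for numbers 1, 2 and 3, all under 0.1). Sequences of probes and genes were not used here.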

Additional observations from a re-analysis of the deposited data

How the results depend on the processing

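The 11 probe sets higher in PVM became 0 with the replicate block and with PP arrays 1 and 2 averaged, 1 with a pseudocount of 1, 5 with no filter, 4 with 1 probe set per gene, 54 with a pseudocount of 64 and 136 with an intensity trend and robust prior, and 0 to 3 with 1 array left out (3 without PVM array 2, 0 without each other array). The 0 lower in PVM became 3 with the pseudocount of 64 and 13 with the trend. As to the pairing, each PVM array's deviations correlated best with those of the PP array of its own number, though at 0.0417 or less, a hint from the data and not the design. With a pseudocount of 64, the shared SCAM-4 probe set was at 1.87 and MAPKK2 probe set A at 1.66, since a larger pseudocount shrinks dim signals. Over the other settings and single arrays left out, both kept their sign, SCAM-4 between 2.12 and 3.51 and MAPKK2 between 1.94 and 2.39. With array weights MAPKK2 probe set B was at 0.18 and probe set C at -0.02, both with turned sign. With a pseudocount of 1, the median of the list of calcium-dependent and related kinases was 1.92 and that of the calcium pumps and annexin 0.90. With 1 array left out the median of the pumps and annexin ran from 0.48 to 0.90. Averaging PP arrays 1 and 2, the mark for shared sequence and 1 probe set per gene were chosen after the data were seen, as was leaving out PTOX, SHMT and the chosen genes. None of the 50 other list probe sets passed under any of the 18 alternatives, with the lowest adjusted p at 0.0896. The causes of the other changes were not tested. Signals near background limit the sizes given for SCAM-4, CDPK-GAMMA, ANN11, CRK11 and NARK among others (NARK ran from 0.32 to 2.28).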
